A study of Mus musculus with 6 samples.

Results

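The 40 genes described here encode the aminoacyl-tRNA synthetases of the mouse and the scaffold proteins that hold some of them together. They were picked by a rule on gene names, which was set with earlier results of these data known. It took every symbol made of a capital letter and "ars" with at most a final 1 or 2, plus Farsa, Farsb, Eprs, Aimp1, Aimp2 and Eef1e1. That rule found 40 of the 51912 gene IDs in the count table, and all 40 passed the filter on low counts. By role they were 20 cytosolic synthetase genes, of which 8 belong to the multi-synthetase complex and 12 do not, 3 scaffold genes of that complex, and 17 mitochondrial synthetase genes. RNA was sequenced from EL4 cells, an established mouse T-cell lymphoma line labelled as WT in genotype. The treated group received RGFP966, an HDAC3 inhibitor, at 10 µM for 24 h, and the control group received vehicle. Each group had 3 libraries, of 12935443 to 16451017 counts. Whether those 3 came from separate cultures is not stated, so the p-values measure the spread between these samples, which may be technical.

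Because the extraction text of the labels speaks of retinas, the libraries were checked against cell markers. All 10 T cell markers passed the filter, and their summed level was 2207 to 2231 CPM (counts scaled to the library total) in vehicle and 2195 to 2252 CPM in RGFP966 libraries. The 12 retina markers summed to 4.34 to 4.96 CPM, with Gnat1, Crx and Rpe65 at 0 in all 6 libraries. Over all 6 libraries B cell markers summed to 1.71 to 3.01 CPM, myeloid markers 12.3 to 13.8 CPM and erythroid markers 0.783 to 1.16 CPM. Fibroblast markers summed to 44.1 to 45.1 CPM in vehicle and 54.2 to 56.6 CPM in RGFP966 libraries, of which Pdgfra alone had a mean of 49.2 CPM, and Col3a1 was at 0 throughout. The part of these signals in the results below was not tested. In bulk RNA, fewer cells of a kind and less RNA per cell cannot be told apart.

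An aminoacyl-tRNA synthetase joins an amino acid to the tRNA that carries its anticodon, the step at which the genetic code is read into chemistry. Most amino acids have a nuclear gene for the cytosolic enzyme and another for the mitochondrial enzyme, marked in the symbol by a final 2. Kars and Gars encode both forms, and glutaminyl-tRNA in mitochondria is made indirectly, by an amidotransferase that includes Qrsl1. Eprs is a fusion that charges both glutamate and proline. In the cytosol several synthetases assemble with Aimp1, Aimp2 and Eef1e1 into the multi-synthetase complex. Many cytosolic synthetase genes are known targets of ATF4, the transcription factor of the amino acid response, and some are known targets of MYC.

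The sequence around the start sites of these genes is shown first, with the letters that those factors are known to bind. RefSeq promoters on GRCm38.p6 were matched by symbol for 29 of the 40 genes. Windows of 300 bases, 250 before the start and 50 after it, were searched on both strands for CACGTG, the E-box of MYC and related proteins, and for TGATGNAA, the core of the amino acid response element. No matches of the 2 motifs overlapped in these genes. TGATGNAA occurred in 5 of the 12 cytosolic synthetase genes with a window (Aars, Gars, Iars, Tars and Yars), in 0 of 14 mitochondrial genes and in 0 of 3 scaffold genes, against 4.51% of 27025 genes with such a window. CACGTG occurred in 4 of the 12 cytosolic genes (Aars, Farsb, Iars and Tars) and in 1 of the 14 mitochondrial genes (Ears2), against 8.09% of all. Among the genes that fell with RGFP966, 2 of 9 with a window held TGATGNAA, and among those not called 3 of 19 did. Whether the compartments differ in these shares was not tested. A match describes letters and is not evidence of binding.

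The 250 bases before the start are printed for Aars, Gars and Tars, chosen after the search because a TGATGNAA match lies there, and for Iars2 and Aars2, the genes of smallest adjusted p in each direction that had a window. Capitals mark TGATGNAA or CACGTG on either strand, and each sequence runs in the direction of transcription. The windows are chr8:111033592-111033841 on the plus strand, chr6:55037751-55038000 on the plus strand, chr15:11399659-11399908 on the minus strand, chr1:185329402-185329651 on the minus strand and chr17:45506582-45506831 on the plus strand.
Aars: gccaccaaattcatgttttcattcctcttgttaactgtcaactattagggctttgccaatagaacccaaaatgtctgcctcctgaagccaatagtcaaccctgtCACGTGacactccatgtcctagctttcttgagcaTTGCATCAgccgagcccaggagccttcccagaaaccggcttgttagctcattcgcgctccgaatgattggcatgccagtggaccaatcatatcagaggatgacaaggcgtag
Gars: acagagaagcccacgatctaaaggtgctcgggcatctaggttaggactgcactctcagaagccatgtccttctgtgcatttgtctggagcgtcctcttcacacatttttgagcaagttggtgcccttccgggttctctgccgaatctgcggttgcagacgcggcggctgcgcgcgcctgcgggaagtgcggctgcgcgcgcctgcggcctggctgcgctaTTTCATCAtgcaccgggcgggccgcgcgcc
Tars: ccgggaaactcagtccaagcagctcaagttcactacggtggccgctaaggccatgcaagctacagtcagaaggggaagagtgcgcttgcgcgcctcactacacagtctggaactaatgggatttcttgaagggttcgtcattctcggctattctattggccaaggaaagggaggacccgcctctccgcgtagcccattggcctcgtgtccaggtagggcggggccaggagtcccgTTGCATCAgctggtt
Iars2: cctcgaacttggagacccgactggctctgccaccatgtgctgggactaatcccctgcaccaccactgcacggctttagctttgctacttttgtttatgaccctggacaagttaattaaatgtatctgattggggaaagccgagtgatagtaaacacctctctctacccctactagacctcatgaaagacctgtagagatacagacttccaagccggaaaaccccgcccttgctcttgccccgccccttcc
Aars2: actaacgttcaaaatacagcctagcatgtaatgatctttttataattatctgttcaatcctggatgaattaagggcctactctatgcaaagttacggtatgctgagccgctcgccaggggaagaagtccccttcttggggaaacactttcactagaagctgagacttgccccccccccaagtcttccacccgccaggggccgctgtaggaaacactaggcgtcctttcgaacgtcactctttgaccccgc
Counted from the start site, the E-box of Aars began at -146 and its TTGCATCA at -112. In Tars TTGCATCA began at -15, and in Gars TTTCATCA began at -30. The Iars2 and Aars2 stretches held neither motif. The matches of Iars (TTGCATCA) and Yars (TGATGCAA) lay just after the start, as did a second match in Aars (TTTCATCA) and the E-boxes of Tars and Ears2.

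The comparison asked how these genes differ after exposure to the HDAC3 inhibitor. With RGFP966, 14 of the 40 fell and 2 rose at an adjusted p under 0.05, and 24 were not called. Among all 13484 genes tested 11.9% fell and 11.4% rose. Every difference was small: the median log2 fold change of the 40 was -0.07, against -0.00 over all tested genes, and the range ran from -0.39 for Sars2 to 0.22 for Aars2. Of the 40 estimates 27 were below 0 and 13 above, against 6795 below and 6689 above among all tested genes. The RGFP966 libraries all lay below the vehicle libraries in 16 of the 40 and all above in 2, against 18.5% and 17.8% of tested genes. The split by compartment was 10 falls and 0 rises among the 20 cytosolic synthetases, 2 falls among the 3 scaffold genes, and 2 falls and 2 rises among the 17 mitochondrial synthetases. For the 0 rises by edgeR, 1 cytosolic gene (Lars) had a positive fold change at an unadjusted p under 0.05, with overlapping groups. DESeq2 and limma-voom also called 0, but Lars was called higher in 5 of 17 alternative runs. Whether the compartments differ in their calls was not tested.

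**Figure D1:**
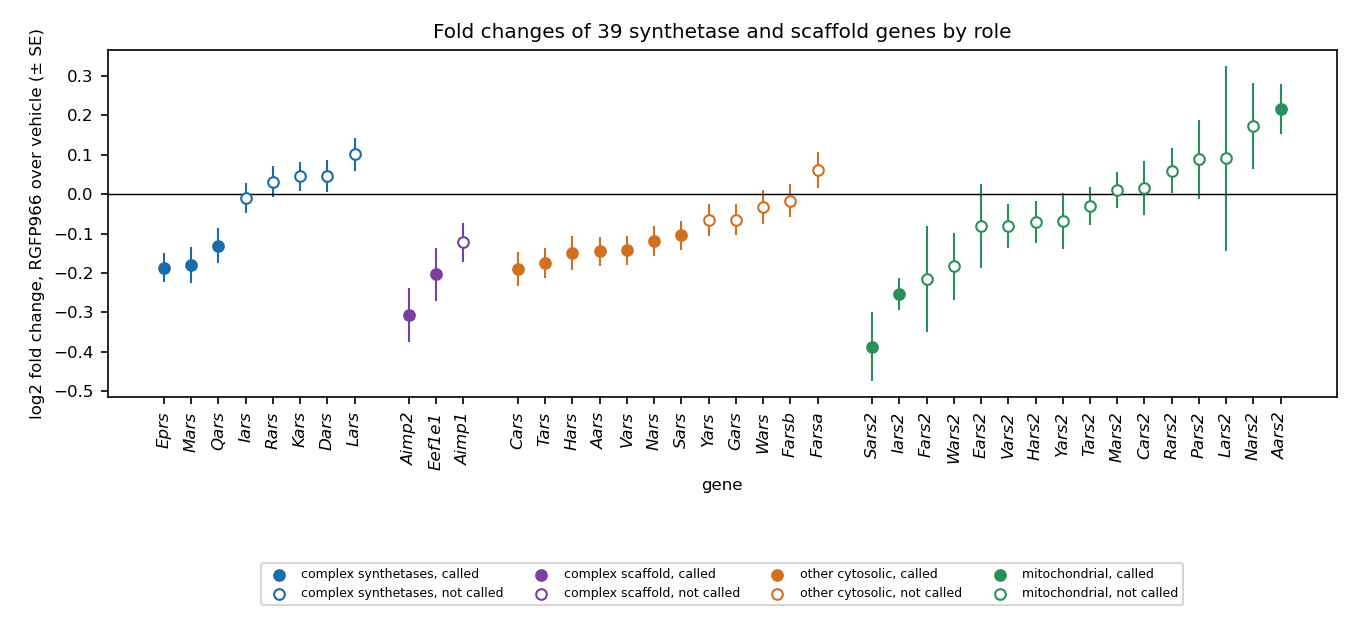
Each point is the log2 fold change of RGFP966 over vehicle for 1 gene with its standard error, from 3 libraries per group; filled points were called at an adjusted p under 0.05. The 20 cytosolic synthetases lie between -0.19 and 0.10, and the 16 mitochondrial ones drawn spread from -0.39 to 0.22.

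Level bears on the reading of these counts, since abundant genes were called lower more often throughout the table. Of all tested genes with a mean of 100 CPM or more, 22.2% fell and 13.5% rose, and of the 22 members at that level 11 fell and 0 rose. Between 20 and 100 CPM 16.4% of all genes fell and 12.2% rose, and of 14 members 3 fell and 2 rose. Between 5 and 20 CPM 6.5% of all genes fell and 14% rose. None of the 4 members under 20 CPM (Ears2, Fars2, Nars2 and Pars2) was called by edgeR, and their unadjusted p-values ran from 0.114 to 0.451. The scaling also moved the balance of all calls, of which 49.1% were rises: this was 59.1% with upper-quartile factors (1838 rises, 1270 falls) and 37.4% with uncentred GC and length offsets (1335 rises, 2230 falls). Under the first setting 12 members fell and 3 rose, under the second 16 fell and 2 rose, and the members' median stayed below 0 in both. Without RGFP966 library 3 the falls numbered 9, of which 6 were cytosolic synthetases, and the rises 3.

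**Figure D2:**
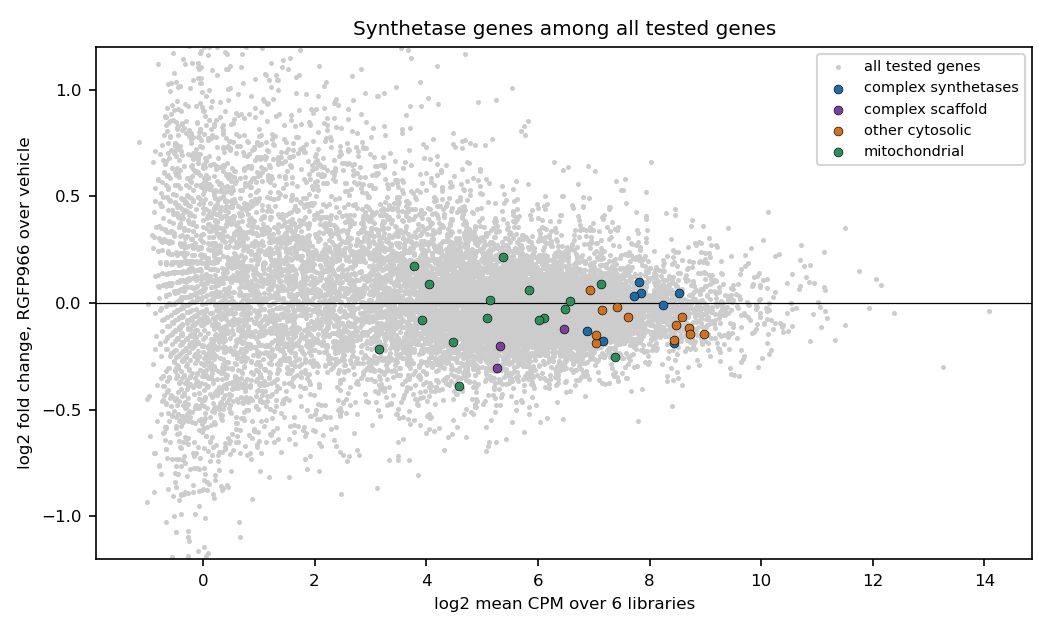
Grey points are the 13484 tested genes and coloured points 39 of the members, by mean level over 6 libraries (log2 CPM) and log2 fold change; 100 genes lie beyond the vertical axis. Most synthetase genes sit at the abundant end, and those drawn lie within -0.39 and 0.22.

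Levels between genes were compared as CPM per kilobase of the principal transcript, the longest where the annotation ranked several alike. On this scale all 20 cytosolic synthetases stood above all 17 mitochondrial ones in vehicle libraries. The order depends on these lengths: Mars2, at 94.9 CPM in vehicle, was divided by 11294 bases and had 8.41 CPM per kb. Whether the separation holds with other transcript lengths was not tested. Kars, the lysyl-tRNA synthetase gene of both compartments, was highest at 181 ± 3.55 CPM per kb (SD, n = 3), followed by Gars at 164 ± 3.93 and Nars at 158 ± 5.39, and the ranges of mean ± SD of the last 2 overlapped. Cars was the lowest cytosolic gene at 43.6 ± 1.18 CPM per kb, and Tars2 the highest mitochondrial gene at 37.6 ± 0.955. Nars2, at 3.44 ± 0.358, and Fars2, at 4.50 ± 0.515, closed the order. From Vars (107) through Sars (104), Dars (104), Rars (98.7) and Aars (92.5) to Tars (91.7), the range of mean ± SD of each gene overlapped that of its neighbour. Among the scaffold genes Aimp1 measured 82.3 ± 5.14, Aimp2 36.2 ± 0.555 and Eef1e1 16.8 ± 1.17 CPM per kb. Before division by length, Aimp1 had 92.7 CPM in vehicle, Aimp2 42.9 and Eef1e1 42.8. The gap between Aimp2 and Eef1e1 thus came from the lengths used, 1185 and 2553 bases. Summed CPM of the 20 cytosolic synthetases was 5300, 5448 and 5489 in the vehicle libraries and 5136, 5209 and 5030 in the RGFP966 libraries, a difference of -5.31% between the means. For the 17 mitochondrial genes the sums were 965, 938 and 974 against 992, 909 and 910, which overlap.

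**Figure D3:**
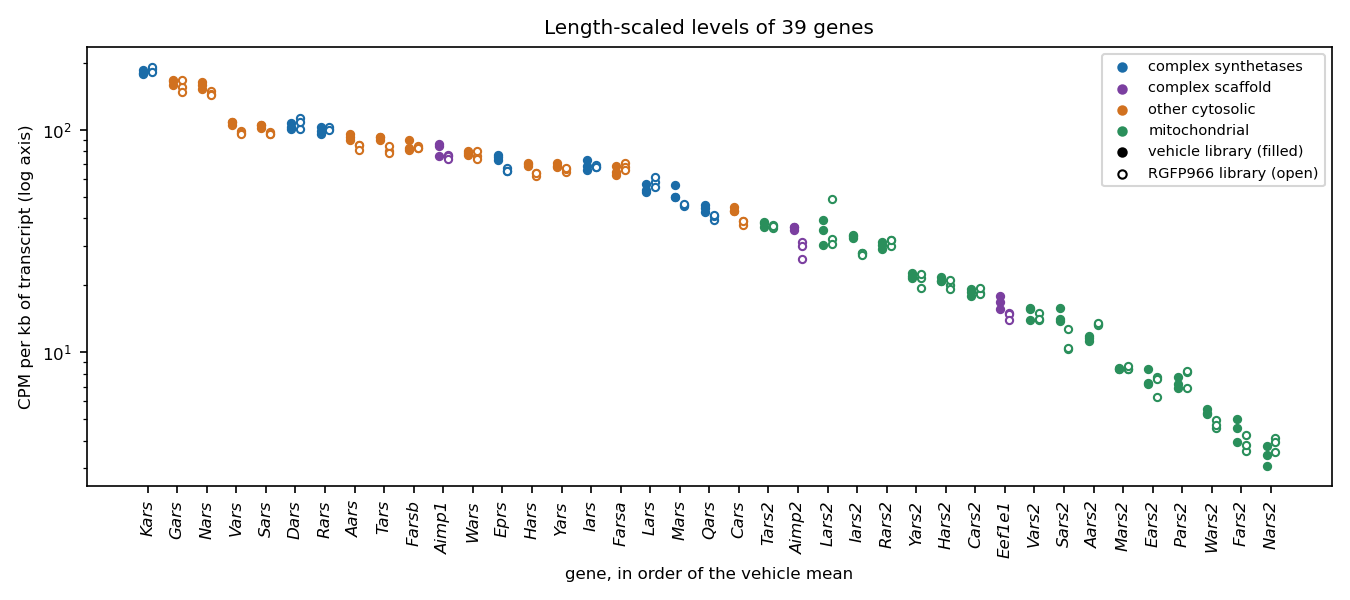
Points are single libraries, filled for vehicle and open for RGFP966, as CPM per kb of principal transcript on a log axis, with genes in order of their vehicle mean. Cytosolic genes fill the upper part, from Kars at 181 to Cars at 43.6, and mitochondrial genes begin at Tars2 with 37.6.

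Within the multi-synthetase complex, 3 of the 8 synthetase genes fell and 0 rose, with a median log2 fold change of 0.01. Eprs, the fused glutamyl- and prolyl-tRNA synthetase (chromosome 1, 185363044 to 185428360, plus strand, ENSMUSG00000026615), measured 356, 369 and 378 CPM in vehicle and 329, 320 and 321 CPM in RGFP966 libraries. All treated libraries were below all controls, and the log2 fold change was -0.19 ± 0.04 (SE, adjusted p = 1.30e-04). Mars, which charges methionine for initiation and elongation (chromosome 10, 127296221 to 127311786, minus strand, ENSMUSG00000040354), measured 146, 146 and 166 against 134, 134 and 137 CPM. Vehicle library 3 stood above the other two, the groups did not overlap, and the change was -0.18 ± 0.05 (adjusted p = 2.30e-03). Without that library the value was -0.11 and the adjusted p 0.0901, with a range from 4.77e-04 over the alternatives. Qars, the glutaminyl-tRNA synthetase (chromosome 9, 108507706 to 108515941, plus strand, ENSMUSG00000032604), measured 128, 125 and 119 against 110, 114 and 115 CPM, a narrow gap without overlap (-0.13 ± 0.04, adjusted p = 0.0269). Its call was lost without vehicle library 1 (adjusted p = 0.163), RGFP966 library 1 (0.138) or RGFP966 library 3 (0.0578), with upper-quartile factors (0.0748), with the total count alone (0.0538) and by DESeq2's Wald test (0.0788), with a range from 2.93e-03.

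The other 5 complex synthetases were not called. Iars, the isoleucyl-tRNA synthetase and the gene nearest the median of the 8, measured 303, 290 and 322 against 300, 308 and 301 CPM (log2 fold change -0.01 ± 0.04, adjusted p = 0.886), and the groups overlapped. Of its 50-base exonic words 7.15% also occur in other genes, and the processed pseudogene Gm4849 shares more of them than any other gene. Rars, Kars and Dars, which charge arginine, lysine and aspartate, had values of 0.03, 0.05 and 0.05. Lars, the leucyl-tRNA synthetase that also senses leucine for mTORC1, measured 208, 213 and 227 against 232, 243 and 220 CPM. Its value of 0.10 ± 0.04 (adjusted p = 0.0690) passed with upper-quartile factors (0.0195), with the total count alone (0.0297), at a minimum of 5 CPM (0.0273), and without vehicle library 3 (0.0208) or RGFP966 library 3 (0.0244), in a range up to 0.361.

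Of the 3 scaffold genes 2 fell. Aimp2, whose product holds the complex together (chromosome 5, 143902704 to 143909847, minus strand, ENSMUSG00000029610), measured 42.1, 43.2 and 43.3 CPM in vehicle and 37.1, 31.2 and 35.6 CPM in RGFP966 libraries. The vehicle libraries were tightly grouped, every treated library was below them, and the log2 fold change was -0.31 ± 0.07 (adjusted p = 5.93e-04). Of the Aimp2 exons 29.4% overlap Eif2ak1 on the opposite strand, and Eif2ak1, the gene of the heme-regulated eIF2 kinase, was not called at 0.05 (adjusted p = 0.619). The labels do not say whether the counting used strand. Eef1e1, the small scaffold protein also known as p18 (chromosome 13, 38644207 to 38659058, minus strand, ENSMUSG00000001707), measured 43.0, 45.7 and 39.8 against 38.4, 37.8 and 35.5 CPM. The gap between the groups was small, with a change of -0.20 ± 0.07 (adjusted p = 0.0213). The call was lost without vehicle library 1 (0.0544), vehicle library 2 (0.135) or RGFP966 library 3 (0.144) and by DESeq2 (0.0990), with a range from 2.36e-03. Aimp1, a tRNA-binding scaffold and precursor of a cytokine, measured 95.5, 96.6 and 86.0 against 86.7, 85.9 and 83.0 CPM, which overlap at vehicle library 3. It was not called (-0.12 ± 0.05, adjusted p = 0.0686), but its adjusted p was 0.0188 without that library, 0.0485 with a replicate block and 0.0156 with GC and length offsets, in a range up to 0.270.

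Among the 12 cytosolic synthetases outside the complex, 7 fell and 0 rose, with a median log2 fold change of -0.11, and 11 of the 12 estimates were below 0. Over all tested genes 6795 of 13484 estimates were below 0. All tested genes at 100 CPM or more, the level class of these 12, had a median of -0.03, with 22.2% lower and 13.5% higher. Tars, the threonyl-tRNA synthetase whose promoter is printed above (chromosome 15, 11382301 to 11399665, minus strand, ENSMUSG00000022241), measured 359, 372 and 371 CPM in vehicle and 322, 339 and 315 CPM in RGFP966 libraries. No treated library reached a control, and the change was -0.18 ± 0.04 (adjusted p = 3.50e-04). Cars, the cysteinyl-tRNA synthetase (chromosome 7, 143557230 to 143600090, minus strand, ENSMUSG00000010755), measured 138, 145 and 138 against 125, 120 and 125 CPM, a change of -0.19 ± 0.04 (adjusted p = 7.39e-04). Both kept their calls in every alternative run. Aars, the alanyl-tRNA synthetase and the member of most CPM (chromosome 8, 111033144 to 111057664, plus strand, ENSMUSG00000031960), measured 515, 533 and 548 against 489, 489 and 464 CPM. Its groups were separate, at -0.15 ± 0.04 (adjusted p = 2.29e-03). Other genes together overlap 15.1% of its exons. The largest part is that of Exosc6 on the same strand, which had 0 counts in all 6 libraries. How the counting treated reads in shared exons is not stated, so these counts do not show that Exosc6 was silent. Whether reads from Exosc6 were counted to Aars was not tested. Without RGFP966 library 3 the adjusted p of Aars was 0.0512 (-0.11), with a range from 1.04e-03. Vars, the valyl-tRNA synthetase that binds elongation factor 1 (chromosome 17, 35000987 to 35016322, plus strand, ENSMUSG00000007029), measured 446, 434 and 449 against 409, 401 and 393 CPM. The separation was clear relative to the spread, with a change of -0.14 ± 0.04 (adjusted p = 2.37e-03).

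The remaining falls in this group were of similar size. Hars, the histidyl-tRNA synthetase (chromosome 18, 36766528 to 36783205, minus strand, ENSMUSG00000001380), measured 136, 139 and 141 CPM in vehicle and 126, 123 and 127 CPM in RGFP966 libraries, a change of -0.15 ± 0.04 (adjusted p = 7.30e-03). It lies head to head with Hars2, which has the largest part in the 7.97% of its exons that other genes overlap. Nars, the asparaginyl-tRNA synthetase and the gene nearest the median of the 12 (chromosome 18, 64499647 to 64516652, minus strand, ENSMUSG00000024587), measured 418, 448 and 434 against 408, 398 and 392 CPM (-0.12 ± 0.04, adjusted p = 0.0137). The lowest control and the highest treated library were close, and the call was lost without vehicle library 2 (0.0570), vehicle library 3 (0.0507) or RGFP966 library 3 (0.107), with a range from 3.14e-04. Sars, the seryl-tRNA synthetase (chromosome 3, 108424865 to 108445209, minus strand, ENSMUSG00000068739), measured 362, 375 and 376 against 349, 343 and 343 CPM, the smallest change called, at -0.10 ± 0.04 (adjusted p = 0.0298). It was the least stable call, lost in 9 of 17 alternatives. Those were the removal of any library but vehicle library 1 (0.0526 to 0.125), upper-quartile factors (0.0903), the total count alone (0.0554), a minimum of 5 CPM (0.0506) and thinning (0.0514), with a range from 8.64e-03.

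The other 5 were not called. Gars, which charges glycine in both compartments, measured 379, 393 and 397 against 371, 396 and 350 CPM, and RGFP966 library 2 lay among the controls (-0.07 ± 0.04, adjusted p = 0.245). Yars, the tyrosyl-tRNA synthetase, measured 200, 197 and 207 against 188, 194 and 195 CPM, without overlap but with a gap too small to pass (-0.07 ± 0.04, adjusted p = 0.250). Wars, the interferon-inducible tryptophanyl-tRNA synthetase, had a value of -0.03. Farsa and Farsb, the subunits of phenylalanyl-tRNA synthetase, had values of 0.06 and -0.02. Grouped by catalytic fold, 4 of 9 class I and 5 of 10 class II cytosolic genes fell, with medians of -0.07 and -0.09 (Eprs, which has domains of both classes, is in neither).

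**Figure D4:**
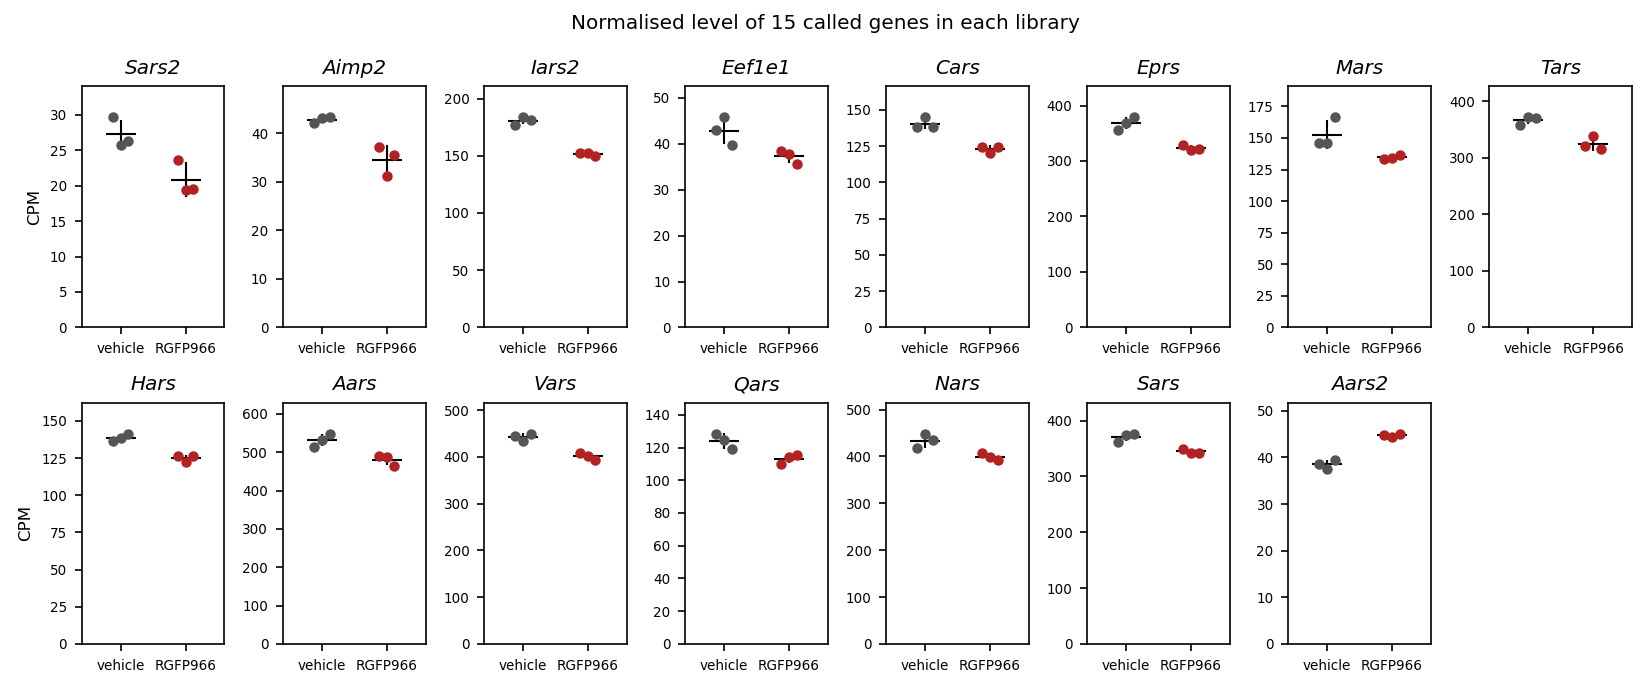
Each panel shows 1 of 15 called genes in CPM from 0, with a point per library, the group mean as a bar and the SD as a line (n = 3). The first 14 panels, from Sars2 to Sars, are lower and the last, Aars2, higher with RGFP966, without overlap of the groups.

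Among the 17 mitochondrial synthetases 2 fell, 2 rose and 13 were not called, with a median log2 fold change of -0.03. The share of 11.8% in each direction is near the 11.9% lower and 11.4% higher of all tested genes. Iars2, the mitochondrial isoleucyl-tRNA synthetase (chromosome 1, 185284726 to 185329396, minus strand, ENSMUSG00000026618), had the smallest adjusted p of all 40 genes. It measured 177, 183 and 181 CPM in vehicle and 152, 153 and 149 CPM in RGFP966 libraries. The groups were far apart relative to their spread, with a change of -0.25 ± 0.04 (adjusted p = 3.05e-06). Other genes together overlap 24.2% of its exons, and Rab3gap2 on the opposite strand has the largest part. Rab3gap2 was not called (-0.13, adjusted p = 0.125), although its adjusted p was 0.0179 with GC and length offsets. Sars2, the mitochondrial seryl-tRNA synthetase (chromosome 7, 28741992 to 28753871, plus strand, ENSMUSG00000070699), measured 29.6, 25.8 and 26.4 against 23.7, 19.3 and 19.5 CPM. Library 1 was the highest of each group, the groups did not overlap, and the change of -0.39 ± 0.09 (adjusted p = 6.69e-04) was the largest among the 40.

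Both rises among the 40 were of mitochondrial genes, of which 11.8% rose, against 11.4% of all tested genes. Aars2, the mitochondrial alanyl-tRNA synthetase (chromosome 17, 45506841 to 45520843, plus strand, ENSMUSG00000023938), measured 38.6, 37.5 and 39.4 CPM in vehicle and 44.8, 44.4 and 45 CPM in RGFP966 libraries, a change of 0.22 ± 0.06 (adjusted p = 9.10e-03). Every treated library was above every control, and the call held in all 17 alternatives.

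Of the 13 not called, Tars2 lay nearest the median of the 17, with 90.8, 92.1 and 87.7 against 89.4, 87.0 and 88.7 CPM (-0.03 ± 0.05, adjusted p = 0.712). Wars2, the mitochondrial tryptophanyl-tRNA synthetase, measured 23.2, 24.4 and 23.4 against 21.8, 20 and 20.7 CPM, without overlap (-0.18 ± 0.08, adjusted p = 0.116), and passed with GC and length offsets (0.0334). Lars2, the mitochondrial leucyl-tRNA synthetase, was the most variable of the 40, at 138, 118 and 152 against 190, 126 and 119 CPM. RGFP966 library 1 was highest, the other treated libraries lay among the controls, and the standard error of 0.23 exceeded the value of 0.09 (adjusted p = 0.841). Without RGFP966 library 1 the value was -0.15. Mars2, by contrast, measured 94.7 to 95.3 CPM in vehicle and 94.5 to 97.8 CPM in RGFP966 libraries (0.01 ± 0.05). Fars2, Nars2, Ears2 and Pars2 had 104 to 276 counts per library, with values of -0.22, 0.17, -0.08 and 0.09 and standard errors of 0.10 to 0.13. Cars2, Rars2, Vars2, Hars2 and Yars2 had values between -0.08 and 0.06.

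Each mitochondrial gene was also set beside its cytosolic counterpart within each library, in 18 pairs, since phenylalanyl-tRNA synthetase has a pair of cytosolic subunits and Eprs answers to both Ears2 and Pars2. For alanine the mitochondrial to cytosolic ratio of CPM was 7.50%, 7.05% and 7.20% in vehicle and 9.14%, 9.08% and 9.70% in RGFP966 libraries, the largest difference upward (0.36 ± 0.04 on the log2 scale). For isoleucine the ratio was 58.4%, 63.2% and 56.4% against 50.8%, 49.6% and 49.7% (-0.24 ± 0.05). For serine, where both genes fell, it was 8.19%, 6.87% and 7.01% against 6.78%, 5.63% and 5.69% (-0.29 ± 0.12), narrowly without overlap. For methionine it was 64.8%, 65.3% and 57.0% against 70.8%, 70.3% and 71.6% (0.19 ± 0.06). For tyrosine, with a difference of -0.00 ± 0.08, and arginine, with 0.03 ± 0.04, the ratios overlapped. These first 4 pairs were among 10 of the 18 with a two-sided exact permutation p of 0.1 (n = 3 per group). At this p the ratios of the groups do not overlap, and the share of other gene pairs that separate was not computed. The pairs are not independent, since Eprs and Fars2 each enter more than once. That is the smallest p this design allows, so no pair can pass a threshold of 0.05. The adjusted p of these 4 pairs was 0.180 over the 18 pairs.

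**Figure D5:**
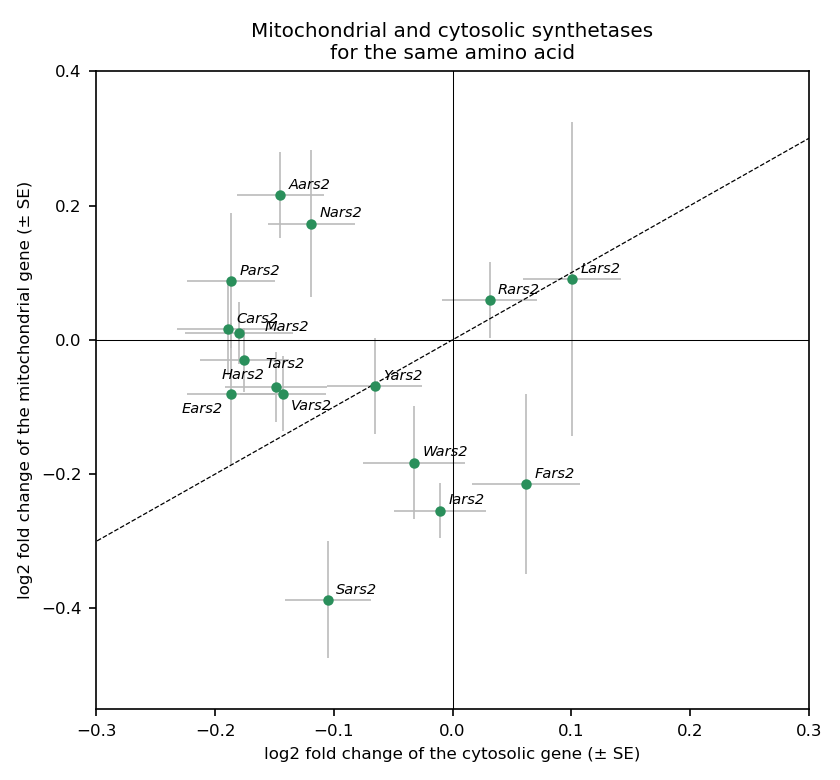
Each point is a mitochondrial synthetase, placed by the log2 fold change of its cytosolic counterpart (horizontal) and its own (vertical), with standard errors; the dashed line marks equal change, and Fars2 is set against Farsa. Aars2 lies above the line at 0.22 against -0.15, Iars2 below it at -0.25 against -0.01.

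Other genes of tRNA charging and translation were counted from lists that hold none of the 40. The whole-table shares of 11.9% lower and 11.4% higher apply here too. Among 16 synthetase relatives and enzymes of charged tRNA, 3 fell and 1 rose (median -0.02). Qrsl1, the amidotransferase subunit that makes mitochondrial glutaminyl-tRNA, measured 41.7, 41.6 and 42.2 CPM in vehicle and 34.0, 32.1 and 35.9 CPM in RGFP966 libraries (-0.30 ± 0.07, adjusted p = 6.85e-04). Dtd1, which removes D-amino acids from tRNA, had 0.25 (adjusted p = 0.0178), lost without RGFP966 library 2 (0.121), RGFP966 library 3 (0.0684) or vehicle library 2 (0.0534) and by DESeq2 (0.0839), with a range from 6.73e-03. Of 12 tested elongation factors 4 fell and 1 rose (median -0.07). Eef1a1, the factor that carries charged tRNA to the ribosome, fell from 10844 ± 129 to 8805 ± 117 CPM (SD, n = 3; -0.30 ± 0.03, adjusted p = 7.17e-10). Eefsec, its counterpart for selenocysteine, had 0.22 (adjusted p = 0.0318), lost in 6 of 17 alternatives, without vehicle library 2 (0.116) or 3 (0.0505), without RGFP966 library 1 (0.0521) or 2 (0.175), with no filter (0.0538) and by DESeq2 (0.119), with a range from 0.0175.

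In tRNA processing, splicing and export 2 of 26 tested genes fell and 3 rose (median 0.01). Xpot, the export receptor of mature tRNA, measured 413, 429 and 448 CPM in vehicle and 393, 395 and 381 CPM in RGFP966 libraries (-0.14 ± 0.04, adjusted p = 3.06e-03), with 0.0581 without vehicle library 3, with a range from 3.92e-05. Pop7, a ribonuclease P subunit, fell from 23.4 ± 2.18 to 18 ± 0.204 CPM (adjusted p = 1.27e-03), and Tsen15, of the tRNA splicing endonuclease, rose from 33.2 ± 2.48 to 41.2 ± 2.93 CPM (adjusted p = 7.92e-04). In tRNA modification 9 of 46 fell and 3 rose (median 0.00). Dus3l, a dihydrouridine synthase, fell from 64.6 ± 2.58 to 42.5 ± 4.66 CPM (-0.60 ± 0.06, adjusted p = 2.08e-10), and Cdkal1, which modifies lysine tRNA, rose from 15.5 ± 1.12 to 21.2 ± 0.547 CPM (adjusted p = 2.13e-04). For RNA polymerase III and its factors, which transcribe tRNA, 3 of 22 fell and 1 rose (median -0.08). Gtf3c6, a TFIIIC subunit, fell by 0.33 (adjusted p = 5.26e-05), and Polr3gl had 0.40 (adjusted p = 0.0126), lost without RGFP966 library 1 (0.0693) and by DESeq2 (0.0681), with a range from 9.03e-03.

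Among 27 tested genes of the amino acid response outside the synthetases, 12 fell and 2 rose (median -0.09). Atf4 itself measured 432, 432 and 429 CPM in vehicle and 421, 426 and 424 CPM in RGFP966 libraries, a narrow gap without overlap that was not called (-0.03 ± 0.04, adjusted p = 0.669). Asns, the asparagine synthetase, measured 614, 633 and 620 against 584, 612 and 582 CPM and was not called, without overlap (-0.07 ± 0.04, adjusted p = 0.161, or 0.0113 with GC and length offsets). Mthfd2, a mitochondrial folate enzyme, measured 179, 180 and 182 against 156, 150 and 150 CPM (-0.24 ± 0.04, adjusted p = 7.05e-06). Ddit4, an inhibitor of mTORC1, rose from 57.7 ± 6.40 to 81.7 ± 5.70 CPM (0.50 ± 0.07, adjusted p = 2.78e-06).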

How the data were processed

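The deposited table holds raw read counts per Ensembl gene ID, 1 column per library, with 0 lines that name no gene. HTSeq 0.6.0, TopHat2, HISAT2 2.1.0, Bowtie2 2.2.3, CASAVA and build mm10 are named, without their roles, per the submitters' processing notes. Strandedness and annotation release are not stated in them. Symbols covered 51633 of 51912 IDs. GENCODE M21, which uses that assembly, gave the 1-based positions, transcript lengths and exon overlaps.

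Counts of all 6 libraries were fitted in edgeR 4.0.16 (R 4.3.3) by robust quasi-likelihood with group as the only term, after filterByExpr and TMM scaling. The Benjamini-Hochberg adjustment ran over all 13484 tested genes, and a call needs an adjusted p under 0.05. Each standard error was derived from the fold change and its F statistic. CPM values use the scaled library totals. Polymerase chain reaction duplicates cannot be told apart from separate molecules in these counts. Alternatives were other scalings and filters, removal of the 10 most abundant genes, DESeq2 1.42.0, limma-voom 3.58.1, GC and length offsets, thinning, a replicate block, and each library left out.

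Members, gene lists and naming rules (all members; the called gene of smallest adjusted p in each direction of each list; Xpot, Atf4 and Asns) were chosen with earlier results of these data known. The partners of members with at least 10% of exons overlapped, and the class I and II split, were added after values were seen. Protein sequences were not used here. The values of 1 member are not reported here, and it is left out of the figures; counts and medians include it.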

Additional observations from a re-analysis of the deposited data

How the results depend on the processing

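Over 17 alternatives, 10 of the 16 called members kept their calls in all, 6 lost the call in at least 1, and 0 changed sign; of the 24 not called, 3 passed in at least 1 (Aimp1, Lars and Wars2). The DESeq2 Wald test called 1011 genes higher in the whole table, against 1543. The members' median of -0.07 became -0.05 with upper-quartile factors and at a minimum mean of 5 CPM, -0.11 with uncentred GC and length offsets, and -0.10 to -0.06 with single libraries left out. Without single libraries the members called lower numbered 9 to 13, and the cytosolic synthetases called lower 6 to 9. With the replicate number as a block 2 members were called higher and 15 lower, against 2 and 14. Over all genes that block called 1667 higher and 1764 lower, against 1543 and 1602. Deviations of same-numbered libraries from their group means had correlations of -0.0182, 0.0132 and 0.00842. With 3 libraries per group these values cannot show whether same-numbered libraries shared a day or culture, which is not stated. Signs turned only in genes not called: with the offsets, Cars2 and Mars2 had -0.03, Rars -0.02 and Kars -0.00; after thinning, Cars2 had -0.02 and Iars 0.00; with upper-quartile factors, Farsb and Iars had 0.01; with the total count alone and at 5 CPM, Iars had 0.00. With single libraries left out the ranges were -0.01 to 0.04 for Cars2, -0.13 to 0.00 for Ears2, -0.04 to 0.03 for Farsb, -0.05 to 0.03 for Iars, -0.15 to 0.22 for Lars2, -0.07 to 0.00 for Wars and -0.06 to 0.11 for Eif2ak1. Standard errors were 0.10 to 0.13 for the 4 members under 20 CPM and 0.23 for Lars2. The cause of these shifts was not tested.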
